A study of Bos indicus with 6 samples.

Results

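The enzymes of oxidative phosphorylation are the 5 protein complexes of the inner mitochondrial membrane, and the genes of their nuclear-encoded subunits were described here in isthmus tissue of the bovine oviduct. Members were chosen by symbol from the names of the rows in the deposited isthmus values. They were the NADH dehydrogenase genes of the NDUFA, NDUFB, NDUFC, NDUFS and NDUFV series (complex I), SDHA to SDHD (complex II), symbols that begin with UQCR (complex III), the COX4 to COX8 series (complex IV) and symbols that begin with ATP5 (complex V). This gave 88 of the 24616 genes listed, 38 in complex I, 4 in complex II, 8 in complex III, 20 in complex IV and 18 in complex V. The 88 genes carried 83 distinct symbols, because COX7B and COX7C each stood for 3 genes and ATP5E for 2. Near-identical copies can share or lose reads in counting, so the values of these 8 genes are uncertain. Some symbols cover proteins other than structural subunits: COX7A2L encodes a factor that joins complexes into larger assemblies, and ATP5S (factor B) and ATP5SL are not part of the core ATP synthase. NDUFA4 is counted here with complex I by its symbol, although its protein is now assigned to complex IV.

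Complexes I and II take electrons from NADH and succinate and pass them to ubiquinone, complex III passes them on to cytochrome c, and complex IV hands them to oxygen. Complexes I, III and IV pump protons while they do so, and complex V, the ATP synthase, uses the proton gradient to make ATP. In the oviduct, ATP drives ciliary beating in the epithelium and contraction of the muscle layer, which is thick in the isthmus.

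The 6 libraries came from 6 multiparous Nelore cows, 1 library per cow, of which 3 belonged to the LF/LCL group (larger follicle and corpus luteum) and 3 to the SF/SCL group (smaller follicle and corpus luteum). In both groups the cycle was presynchronised with a PGF analog (sodium cloprostenol) and a GnRH agonist (buserelin acetate), and each cow then received a 1 g intravaginal progesterone device with 2 mg of estradiol benzoate. LF/LCL cows also received PGF on that day, and their device was taken out 42 h before the GnRH agonist that induced ovulation, against 30 h in SF/SCL cows. Both groups had further PGF doses, the first with the removal of the device and the next after 6 h, and tissue was collected on day 4. The authors sequenced the top-ranked LF/LCL and the bottom-ranked SF/SCL animals, so the libraries are the extremes of their groups. The samples held the full thickness of the oviduct wall, and in such bulk RNA fewer cells of a type and less RNA per cell cannot be told apart. The values are read counts divided by a size factor per library, called normalised read counts below. Libraries held 25652651, 28659214 and 29836083 reads in LF/LCL cows 617, 79 and 527, and 34193164, 23899117 and 25472906 reads in SF/SCL cows 856, 97 and 489215. Values are given in this order of cows throughout. Gene lengths were not used, so sums, and genes called the most abundant, refer to read counts and not to levels per length.

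Markers of the layers of the isthmus were present in every library. The smooth muscle myosin gene MYH11 had normalised read counts of 157535, 137623 and 191119 in LF/LCL cows and 82654, 122911 and 116653 in SF/SCL cows. FOXJ1, a regulator of motile cilia, had 6276, 5421 and 3436 against 12042, 11225 and 2609, and the epithelial adhesion gene EPCAM had 12286, 9925 and 8529.6 against 15871, 18854 and 20313. Cow 489215 stood apart from the other SF/SCL cows in several of these markers. OVGP1, the secreted oviductal glycoprotein, had 287, 1782 and 1949.9 in LF/LCL cows, 271794 and 325158 in SF/SCL cows 856 and 97, and 729.6 in cow 489215. MSLN, a mesothelial gene, had 808, 873 and 1871, then 17589.6 and 18098, then 2299. In both genes cow 489215 lay near the LF/LCL cows and far below the other SF/SCL cows. Its deposited values also summed to 33913666, against 25901138 to 26900121 in the other libraries. Results are therefore given with and without cow 489215.

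Cow 489215 also differed from all other cows in the subunit genes. Summed over the 88 genes, the normalised read counts were 226521, 204031 and 193786 in LF/LCL cows, 166772 and 170747 in SF/SCL cows 856 and 97, and 435205 in cow 489215. The sum of cow 489215 was 2.26 times the mean of the other 5 cows, and the other SF/SCL cows had the lowest sums of the series. Of the 87 subunit genes that passed the filter on low and variable values, 82 had their highest value in cow 489215, against 36.7% of the 15387 genes tested. The exceptions were NDUFB2 and NDUFS1 of complex I, 1 of the COX7B genes, and ATP5F1 and ATP5SL of complex V. The gene that did not pass the filter was COX6A2. On the log2 scale, the value of cow 489215 minus the mean of the other cows had a median of 1.29 over the subunit genes and of 0.02 over all genes tested, where the quartiles were −0.89 and 0.62. As a share of all values in the library, the subunit genes made up 0.844%, 0.758% and 0.739% in LF/LCL cows, 0.642% and 0.659% in cows 856 and 97, and 1.28% in cow 489215.

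**Figure D1:**
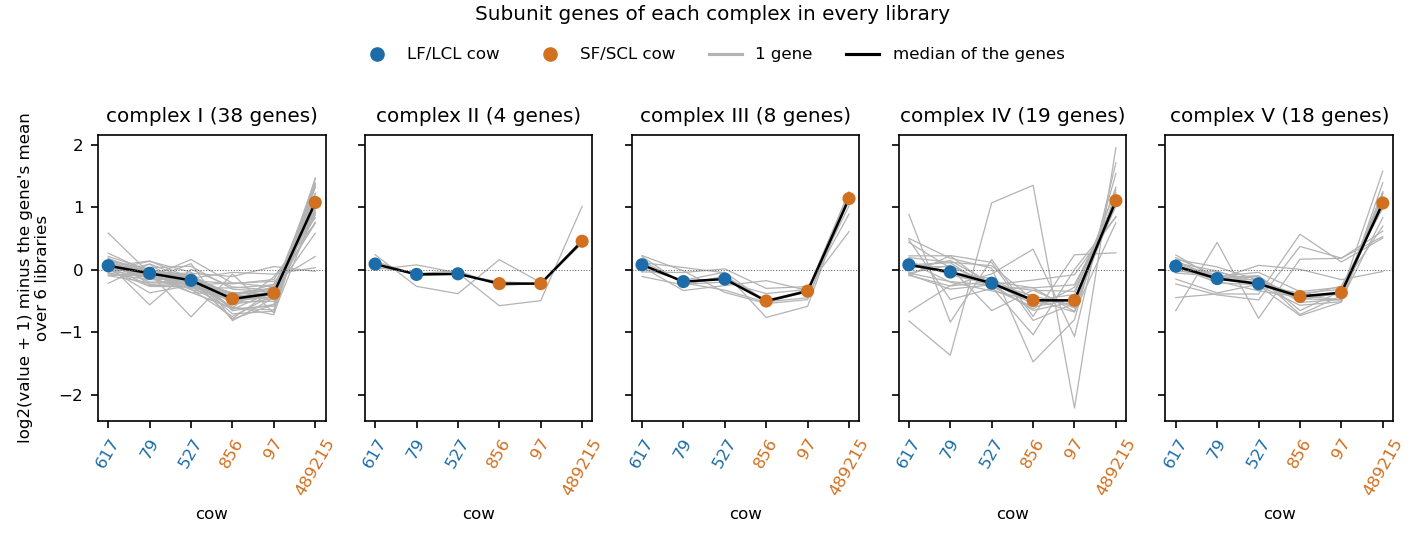
Each grey line is 1 subunit gene and shows its log2(value + 1) minus its own mean over the 6 libraries, by cow and complex, with the median of each complex as points coloured by group (lines only join the values of a gene). The medians are lowest in cows 856 and 97 and highest in cow 489215, and complex II shows the smallest excess in that cow.

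With each gene centred on its own mean, the median over the 87 genes was 0.07, −0.08 and −0.19 in LF/LCL cows, −0.46 and −0.37 in SF/SCL cows 856 and 97, and 1.08 in cow 489215, on the log2 scale. Of the 87 genes, 60 lay within a root mean square distance of 0.2 from this median course, which was taken from the same genes and varied most in cow 489215. The farthest were COX6B2 and 1 COX7B gene with few reads, followed by COX4I2, 1 ATP5E gene, ATP5F1 and COX8B, which were singled out after their values were seen.

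The groups were compared as SF/SCL against LF/LCL, so that a negative log2 fold change is higher in LF/LCL. The comparison asks how the isthmus differs between cows with different follicle and corpus luteum size. The groups also differed in the early PGF dose and the time of device removal, which cannot be told apart from follicle size. With all 6 libraries the groups overlapped in 85 of the 87 subunit genes, with cow 489215 mostly above and cows 856 and 97 mostly below the LF/LCL cows. Limma called 0 of the 87 genes at a Benjamini-Hochberg adjusted p under 0.05, and 0 (0.0%) of all 15387 genes in either direction. The smallest adjusted p of a subunit gene was 0.372 by limma with Benjamini-Hochberg adjustment. At an unadjusted p under 0.05, limma gave 2 subunit genes with higher SF/SCL values (4.19% of all genes) and 0 with higher LF/LCL values (4.48%). The edgeR quasi-likelihood test called 0, and DESeq2 called 2, both higher in SF/SCL, against 1.35% of all genes in each direction. These 2 genes, ATP5F1 and ATP5S, were also the only subunit genes whose groups did not overlap, against 9.51% of all genes with SF/SCL above and 8.6% with LF/LCL above. The log2 fold change was below 0 in 18 of 87 subunit genes and in 51.4% of all genes, and its median was 0.14 over the subunit genes and −0.02 over all genes. The p-values rest on the spread between cows, and the residual SD of log2 values had a median of 0.642 over the subunit genes and 0.435 over all genes.

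Without cow 489215 the median log2 fold change of the subunit genes was −0.32 and its sign was negative in 82 of 87 genes, against 50.1% of the 15495 genes then tested. The mean of the summed values was 18.9% lower in SF/SCL cows 856 and 97 than in LF/LCL cows. At an adjusted p under 0.05, limma called 21 subunit genes as higher in LF/LCL (7.92% of all genes) and 2 as higher in SF/SCL (10.3% of all genes). At an unadjusted p under 0.05, 48 were higher in LF/LCL, against 15.9% of all genes, and 2 in SF/SCL, against 2792 of the 15495 genes. Values did not overlap between the groups in 65 genes with LF/LCL above and in 2 with SF/SCL above, against 24.9% and 27.1% of all genes. By edgeR 22 subunit genes were higher in LF/LCL (7.63% of all genes) and by DESeq2 34 (11.8% of all genes), and the 21 genes called by limma were among those called by each. The residual SD had a median of 0.143 over the subunit genes and 0.184 over all genes. The calls rested on few cows. Against 23 in this fit, limma called 13 subunit genes (11 higher in LF/LCL) when cow 617 was also left out. It called 4 without cow 79 and 22 (21 higher in LF/LCL) without cow 527. Over all genes, 1420, 753 and 1253 were higher in SF/SCL in these 3 refits, against 1600 in this fit. Those higher in LF/LCL numbered 971, 462 and 915, against 1227. Without cow 97 or cow 856, 1 SF/SCL cow remained, so no calls are given. The median log2 fold change stayed between −0.40 and −0.27 when any further cow was left out. With 1 SF/SCL cow remaining, that cow was taken to vary like the LF/LCL cows.

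**Figure D2:**
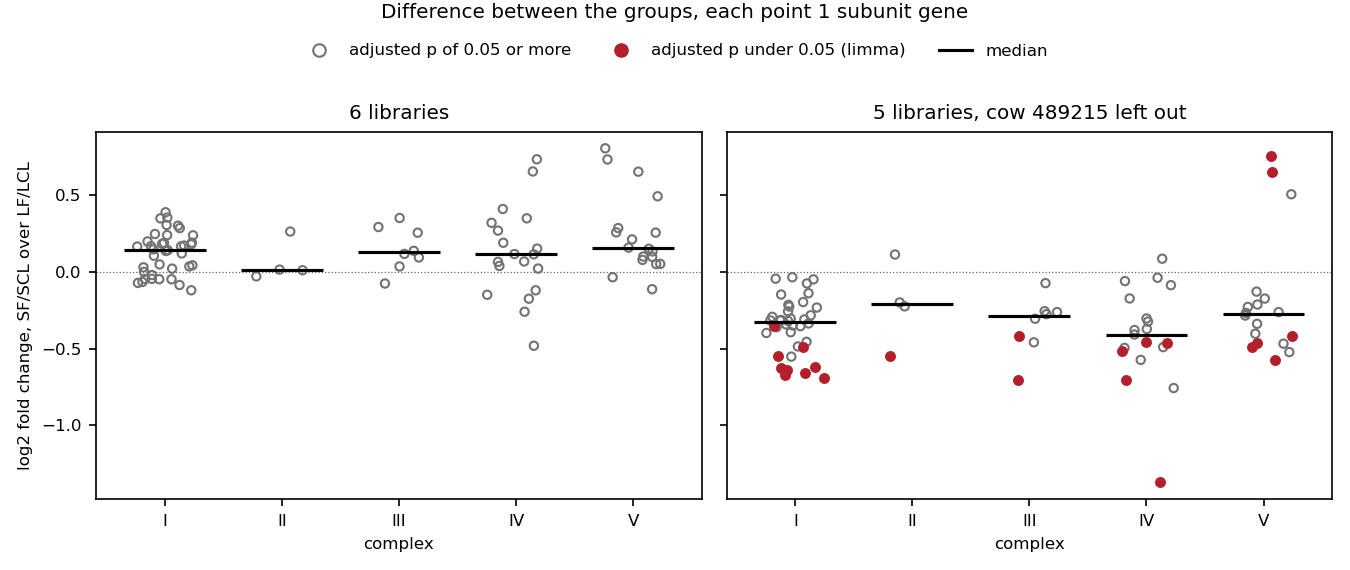
Each point is the log2 fold change (SF/SCL over LF/LCL) of 1 subunit gene, by complex, with 6 libraries on the left and without cow 489215 on the right, filled where limma gave an adjusted p under 0.05, and with the median as a bar. All medians are above 0 on the left and below 0 on the right, where 21 genes are called below 0 and 2 of complex V above it (the median of complex II on the left is 0.01).

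In complex I, the summed normalised read counts were 66547, 60585 and 57277 in LF/LCL cows, 46897 and 49470 in cows 856 and 97, and 126880 in cow 489215. Of the 38 genes, 36 were highest in cow 489215. The median log2 fold change was 0.14 with 6 libraries, in a range of −0.12 to 0.39, and −0.33 without cow 489215, where all 38 values were negative (50.1% of all genes) and 9 genes were called higher in LF/LCL (7.92% of all genes). NDUFS1, the largest subunit of the electron input module with several iron-sulfur clusters, had 4156, 4430.3 and 3656 in LF/LCL cows and 3898, 3827 and 4109.9 in SF/SCL cows. It had similar values in all 6 cows, with overlapping groups and a log2 fold change of −0.04 ± 0.16 (SE). NDUFV1, which binds the flavin that takes electrons from NADH, had 2601, 2393 and 2172 against 1866, 1909 and 4094. Its iron-sulfur partner NDUFV2, named after its values were seen, had 489.8, 538 and 477 against 311, 333 and 1046. In both genes cows 856 and 97 lay below every LF/LCL cow and cow 489215 far above, and without cow 489215 NDUFV2 fell by 0.64 on the log2 scale and passed the threshold, while NDUFV1 did not.

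Other subunits of complex I differed in how far they followed this course. NDUFA4 had 4274, 3682 and 3272 in LF/LCL cows, 2512 and 2305 in cows 856 and 97, and 9851 in cow 489215, a log2 fold change of 0.05 ± 0.56 (SE) that became −0.63 ± 0.13 without the last cow and then passed the threshold. Its relative NDUFA4L2, known as a gene induced in low oxygen, had 46.1, 29.1 and 17.6 against 28.9, 18.4 and 59.9, with overlap in either case. NDUFB6, a membrane arm subunit named after its values were seen, had 1439, 1298 and 1182 against 795, 818 and 3258. Cows 856 and 97 were again the lowest, and NDUFB6 had the most negative log2 fold change of complex I without cow 489215, −0.69 ± 0.12. The members with the largest differences over 6 libraries, which did not pass the threshold, were NDUFA1 and NDUFC2, small subunits of the membrane arm, and NDUFA2, a subunit of the matrix arm. NDUFA1 had 888, 677 and 736 against 757, 722 and 1823, and NDUFC2 had 1994, 1661 and 1652 against 1426, 1471 and 5463. NDUFA2 had 1328, 1277 and 1075 against 1038, 1051 and 3462. Their log2 fold changes of 0.39, 0.36 and 0.35 came with cow 489215 in the group, and without it they were −0.04, −0.28 and −0.23, none past the threshold. NDUFB2, another membrane arm subunit, chosen after its values were seen, had 1723, 1472 and 1473 against 1419.7, 1586 and 1504, and like NDUFS1 was not highest in cow 489215. The 7 core subunits of the matrix arm, grouped after the values were seen, had a median of 0.92 for cow 489215 minus the other cows (log2), and the other 31 genes a median of 1.33. This difference between the groups of subunits was not tested.

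Complex II had the smallest excess in cow 489215. Its summed values were 14937, 13708 and 13530 in LF/LCL cows, 11847 and 11698 in cows 856 and 97, and 21790 in cow 489215, which was 1.66 times the mean of the others. The median log2 fold change of the 4 genes was 0.01, and it was below 0 when the values were rescaled by TMM (−0.01) or by the library total (−0.08), or without cow 79 (−0.00255), cow 527 (−0.00529) or cow 489215 (−0.21). SDHA, the flavoprotein that oxidises succinate, had 7168, 6661 and 6877 against 5828, 5982 and 9727. SDHB, the iron-sulfur subunit, had 3445, 3624 and 3317 against 2305, 2437 and 6943. Without cow 489215 SDHB fell by 0.55 on the log2 scale (limma, Benjamini-Hochberg adjusted p = 0.0106). It was then the called gene among the 4 of the complex (7.92% of all genes). With 6 libraries the adjusted p of SDHB was 0.989 by limma. Over the alternatives to that fit, which include leaving out cow 489215, it ran from 0.0106 to 0.999 by limma, edgeR or DESeq2. SDHC, a membrane anchor that binds ubiquinone, had 1809, 1272 and 1173 against 1711, 1327 and 2058, so that the groups overlapped with and without cow 489215.

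In complex III, sums were 18894, 16350 and 16471 in LF/LCL cows, 13375 and 14112 in cows 856 and 97, and 36579 in cow 489215. All 8 genes were highest in cow 489215. The median log2 fold change was 0.13 with 6 libraries and −0.29 without that cow, and 2 genes, UQCR10 and UQCR11, were then called higher in LF/LCL, against 7.92% of all genes. UQCR11, a small subunit named after its values were seen, had 1316, 1246 and 1175 in LF/LCL cows, 716 and 809.6 in cows 856 and 97, and 2841 in cow 489215. The LF/LCL cows were close to each other and above cows 856 and 97, and without cow 489215 UQCR11 fell by 0.71 on the log2 scale, past the threshold. The core protein gene UQCRC1 had 4083, 4057 and 4224 against 3401, 3471 and 6388, and the Rieske iron-sulfur protein gene UQCRFS1 had 3964, 2913 and 2987 against 2628, 2752 and 6355. Neither passed the threshold in either fit. UQCRC2, the second core protein gene, had 869.8, 669 and 707 against 747, 669.8 and 1713, and its groups overlapped without cow 489215 as well. UQCRH, the hinge protein gene, had 3079, 2803 and 3097 against 2365, 2651 and 7848, and UQCRQ, which encodes a ubiquinone-binding subunit, had 1676, 1313 and 1210.4 against 1058, 1189 and 3609. With UQCRC2 they had the largest log2 fold changes of the complex over 6 libraries (0.35, 0.29 and 0.26 for UQCRC2, UQCRH and UQCRQ), none past the threshold, and each was below 0 without cow 489215.

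Complex IV had the largest excess in cow 489215 by its sum, 2.51 times the mean of the other cows. Sums were 34379, 31104 and 28272 in LF/LCL cows, 24658 and 25388 in cows 856 and 97, and 72119 in cow 489215. The median log2 fold change of the 19 genes tested was 0.11 with 6 libraries, −0.02 without cow 527 and −0.41 without cow 489215, where 5 genes were called higher in LF/LCL, against 7.92% of all genes: COX8B, COX5B, COX6A1, 1 COX7B gene and 1 COX7C gene. COX5B, which binds zinc at the matrix face, had 4277, 3689 and 3322 against 2488, 2742 and 9758.

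Complex IV holds several pairs of isoforms, in which 1 form is widespread and the other is known from heart and skeletal muscle, lung or testis. The muscle form COX8B had 1094, 878 and 785 in LF/LCL cows, 277 and 443 in cows 856 and 97, and 2246 in cow 489215. All LF/LCL cows lay above cows 856 and 97, and cow 489215 lay above all others. The log2 fold change of COX8B was −0.48 ± 0.74 (SE) with 6 libraries (limma, Benjamini-Hochberg adjusted p = 0.903). It turned positive in edgeR (0.06) and DESeq2 (0.10) and without cow 856 (0.13). Without cow 489215 it was −1.37 ± 0.24, the most negative value among the subunit genes (limma, Benjamini-Hochberg adjusted p = 0.0134). Over the alternatives to the fit with 6 libraries, which include leaving out cow 489215, the adjusted p ran from 0.0134 to 0.999 by limma, edgeR or DESeq2. The widespread form COX8A had 1495, 1530.0 and 1144 against 938, 1018 and 3161, again with cows 856 and 97 below all LF/LCL cows but with a log2 fold change of −0.50 without cow 489215 that did not pass the threshold. COX6A1 had 6139.7, 6140.5 and 5140.1 against 4438, 3996 and 12533, and its muscle form COX6A2 had 0 reads in all cows but 856 (1 read) and 489215 (4 reads). A count of 0 leaves room for up to 3 reads per library, so no difference in COX6A2 was detectable at this depth. The muscle form COX7A1 had 427, 466 and 362 against 287, 305 and 861, and COX7A2 had 1168, 881 and 548 against 687, 564 and 1857. COX7A1 separated the LF/LCL cows from cows 856 and 97, whereas COX7A2 overlapped between them. COX7A2L had 3834, 3263 and 3426 against 3609, 3827 and 7299.9, with cows 856 and 97 inside the range of the LF/LCL cows.

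COX4I1, the widespread form of subunit 4, had 5314, 4722 and 4964 against 4625, 4786 and 11661. Its lung form COX4I2 had 54.4, 73.2 and 83.4 against 110.1, 41.2 and 289. Cow 489215 was highest in both, by 2.39 and 3.99 times the mean of the other cows, and the other cows overlapped between the groups. COX6B1 had 1505, 1370.4 and 1316 against 1244, 1230.1 and 3458, and its testis form COX6B2 had 7.33, 4.69 and 29.9 against 36.5, 2.17 and 55.9. The values of COX6B2 varied widely within both groups, and its log2 fold change of 0.74 ± 1.23 (SE) was smaller than its error. In each pair with reads in all cows, the isoforms shared the high values of cow 489215.

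**Figure D3:**
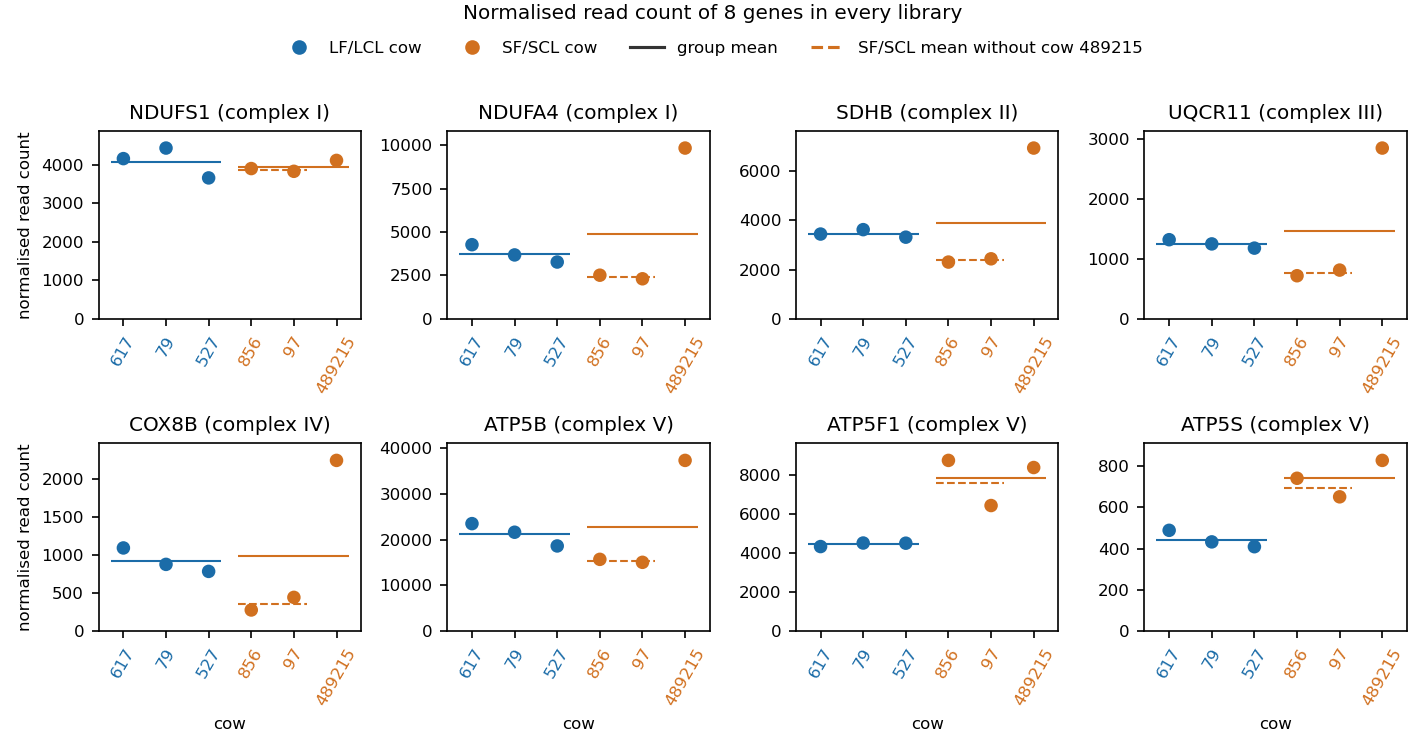
Normalised read count of 8 genes by cow, each axis starting at 0, with the group mean as a line and the SF/SCL mean without cow 489215 as a dashed line. NDUFS1 is level over the cows, NDUFA4, SDHB, UQCR11, COX8B and ATP5B are lowest in cows 856 and 97 and highest in cow 489215, and ATP5F1 and ATP5S are higher in all 3 SF/SCL cows than in any LF/LCL cow.

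In complex V, sums were 91765, 82284 and 78236 in LF/LCL cows, 69994 and 70079 in cows 856 and 97, and 177837 in cow 489215. The median log2 fold change of the 18 genes was 0.16 with 6 libraries and −0.28 without cow 489215, where 4 genes were called higher in LF/LCL (ATP5B, ATP5G1, ATP5G3 and ATP5J2), against 7.92% of all genes, and 2 higher in SF/SCL, against 10.3%. The catalytic beta subunit gene ATP5B had 23488, 21606 and 18609 against 15678, 15026 and 37313, and the alpha subunit gene ATP5A1 had 14937, 13295 and 13930.5 against 11247, 11808 and 23234. Both were lowest in cows 856 and 97 and highest in cow 489215, and without that cow ATP5B fell by 0.46 on the log2 scale and passed the threshold, while ATP5A1 did not. The 3 genes of the membrane ring subunit c encode the same mature protein. ATP5G1 had 2241, 1824 and 1648 against 1177, 1369 and 5152, ATP5G2 had 5718, 4904 and 5398 against 4547, 4911 and 18943, and ATP5G3 had 6008, 5482 and 4675 against 3748, 3902 and 12919.5. Without cow 489215 the groups were separate in ATP5G1 and ATP5G3, whose log2 fold changes of −0.57 and −0.49 passed the threshold, and overlapped in ATP5G2. In cow 489215 ATP5G2 was 3.72 times the mean of the other cows.

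ATP5F1 and ATP5S went the other way. ATP5F1, the b subunit of the peripheral stalk, had 4334, 4516 and 4507 in LF/LCL cows and 8754, 6439 and 8389 in SF/SCL cows 856, 97 and 489215. All 3 SF/SCL cows lay above all LF/LCL cows, with a log2 fold change of 0.81 ± 0.18 (SE). ATP5S, the coupling factor B gene, had 489, 433 and 409 against 741, 651 and 828, again without overlap, with 0.73 ± 0.21. By limma with Benjamini-Hochberg adjustment their adjusted p-values were 0.372 and 0.412 with 6 libraries, and 0.0157 and 0.0256 without cow 489215. Over the alternatives the adjusted p ran from 0.00728 to 0.999 for ATP5F1 and from 0.0236 to 0.999 for ATP5S, by limma, edgeR or DESeq2. The log2 fold change itself stayed between 0.72 and 0.94 for ATP5F1 and between 0.64 and 0.82 for ATP5S. A less abundant gene with the symbol ATP5E (epsilon subunit) had 125, 267 and 114 against 221, 223 and 302, with overlap, and is uncertain because its symbol is shared. ATP5SL, also chosen after its values were seen, had 354, 270.3 and 315 against 302, 269 and 294 and did not follow the other genes in cow 489215.

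Genes of the same pathway outside the symbol rule were followed as a list of 20 genes, of which 7 were tested. All 13 mitochondrially encoded subunit genes were listed at 0 in every library, although every cell with respiration uses them, so their level is not known from these values. Limma called 0 of the 7 with 6 libraries, as did edgeR and DESeq2, and 0 had an unadjusted p under 0.05. Without cow 489215 limma called 1 higher in LF/LCL (7.92% of all genes), ATPIF1, the inhibitor of the ATP synthase, with 3975, 3539.5 and 3060.1 against 2176, 2684 and 8294. Cytochrome c1 (CYC1) had 3762, 3250.4 and 3036 against 2784, 2664 and 6118, and the acyl carrier subunit gene NDUFAB1 had 959.8, 815 and 806 against 662, 700.1 and 2230.0. The more abundant of the genes named CYCS, for cytochrome c, had 872, 771 and 653 against 542, 523 and 1381, and the other had 229, 183 and 169.5 against 166, 204 and 290.2. The more abundant USMG5 gene, a small ATP synthase subunit, had 106, 158 and 73.8 against 76.0, 73.7 and 314. All 7 genes tested were highest in cow 489215.

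Other mitochondrial lists had a smaller excess in cow 489215. Summed values of 37 assembly factors of the complexes were 29178, 27469 and 27075 in LF/LCL cows, 27145 and 26946 in cows 856 and 97, and 43896 in cow 489215. Without that cow, 2 of the 37 were called higher in SF/SCL, where 10.3% of all genes were, and 0 higher in LF/LCL (7.92% of all genes). The 2 genes called had these values: SCO2, which delivers copper to complex IV, had 804, 799.7 and 1002 against 1549.5, 1179 and 1325, and TTC19, a complex III factor, had 1005, 1004 and 921 against 1438, 1268 and 1556. In both, all SF/SCL cows lay above all LF/LCL cows, as in 4 of the 37 assembly factors, against 9.51% of all genes. For 17 enzymes of the tricarboxylic acid cycle and pyruvate dehydrogenase the sums were 72983, 64953 and 68239, then 53780 and 54451, then 96805. Without cow 489215, 4 of the 17 were called higher in LF/LCL (OGDH, IDH2, CS and PDHB), against 7.92% of all genes, and 0 higher in SF/SCL, against 10.3%. OGDH, a subunit of the oxoglutarate dehydrogenase complex, had 12888, 11934 and 14766 against 5041, 5785 and 8829.6, with no overlap between the groups. Its log2 fold change was −1.05 with 6 libraries. Of the 17 enzymes, 2 had all LF/LCL cows above all SF/SCL cows (8.6% of all genes) and 2 the reverse (9.51%). IDH2, the mitochondrial NADP-dependent isocitrate dehydrogenase, had 5551, 4686 and 5379.8 against 2517, 2326 and 5839. With 6 libraries limma and edgeR called 0 genes of either list and DESeq2 called OGDH, higher in LF/LCL (1.35% of all genes). At an unadjusted p under 0.05 limma gave 2 assembly factors and 1 enzyme higher in SF/SCL (4.19% of all genes) and 1 enzyme higher in LF/LCL (4.48%).

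A list of 76 genes was taken by the symbols of mitochondrial ribosomal proteins alone, without a check of what each protein does. Its sums were 83524, 76201 and 77578 in LF/LCL cows, 67587 and 69989 in cows 856 and 97, and 144578 in cow 489215. Of the 76, 74 were highest in that cow, against 36.7% of all genes. With 6 libraries limma, edgeR and DESeq2 called 0 (1 higher in SF/SCL at an unadjusted p under 0.05 by limma, 4.19% of all genes), and without cow 489215 limma called 2 of the 76 as higher in LF/LCL, MRPL15 and MRPS36, where 7.92% of all genes were called. MRPS36, the most abundant gene of the list and so a large part of its sums, had 5814, 5529 and 8097 against 1028, 1703 and 11307. MRPL48 had 462, 358 and 254 against 422, 475 and 1104. Among 19 regulators of mitochondrial biogenesis and mitochondrial DNA, 5 of the 17 tested were highest in cow 489215, against 36.7% of all genes, and the median for that cow minus the others was −0.08 against 0.02 over all genes (log2). With 6 libraries limma, edgeR and DESeq2 called 0 of them, and 0 had an unadjusted p under 0.05 by limma. NRF1, a factor known to act on nuclear genes of the respiratory chain, had 264, 264 and 284 in LF/LCL cows, 337 and 333 in cows 856 and 97, and 93.2 in cow 489215. TFAM, which packages and transcribes mitochondrial DNA, had 652, 593 and 555, then 763 and 672, then 347. Both were lowest in cow 489215, as were 35.7% of all genes tested. PPARGC1A, a coactivator of mitochondrial biogenesis, had 723, 893 and 827, then 389 and 457, then 880.0, and was the 1 gene of the list called without cow 489215, with a log2 fold change of −0.94, where 7.92% of all genes were called in that direction. The nuclear receptor gene ESRRA had 1510.3, 1063 and 1117 against 931, 970.0 and 1761, and MTERFD1, a mitochondrial transcription termination factor family gene, had 515, 518 and 484 against 589, 608 and 1018.

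**Figure D4:**
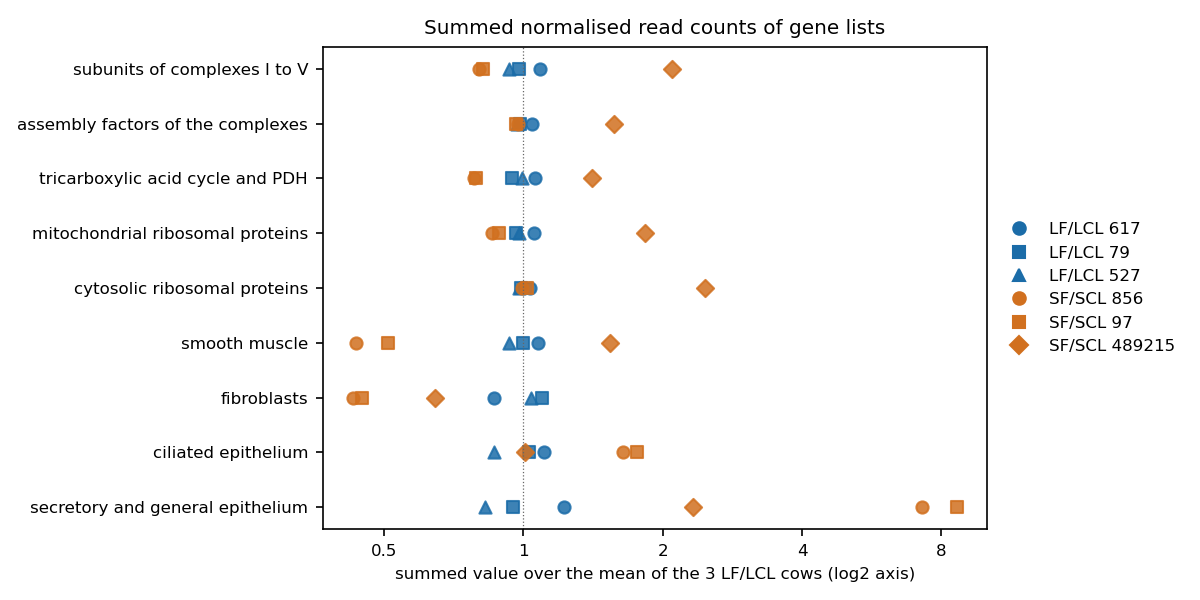
Summed normalised read count of each gene list in every cow, divided by the mean of the 3 LF/LCL cows (log2 axis, points coloured by group and shaped by cow). Cow 489215 is above the other cows for the subunits of complexes I to V, the other mitochondrial lists, the cytosolic ribosomal proteins and smooth muscle. Cows 856 and 97 are lowest for the subunits, the cycle enzymes, the mitochondrial ribosomal proteins, smooth muscle and fibroblasts.

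Markers of cell types moved between the same libraries. Summed values of 9 smooth muscle markers were 861574, 800363 and 745927 in LF/LCL cows, 349892 and 408957 in cows 856 and 97, and 1235372 in cow 489215, the same order as in the sum of the subunit genes. The markers were not alike in cow 489215: 5 of the 9 were highest there and 2, SYNPO2 and CALD1, were lowest, and MYH11 lay below every LF/LCL cow. None of them was at 0, and the most abundant, ACTA2, had 311661, 309608 and 229408 against 102587, 106962 and 533926. Limma called 0 of the 9 with 6 libraries (2 higher in LF/LCL at an unadjusted p under 0.05, 4.48% of all genes, 0 by edgeR, and 1 higher in LF/LCL by DESeq2, 1.35%) and 7 higher in LF/LCL without cow 489215, against 7.92% of all genes. Striated muscle markers had sums of 1298, 2131 and 3440 against 1390, 1358 and 6135. ACTA1 was the most abundant with 978, 1776 and 3012 against 994, 945 and 5564, MYL1 was listed at 0, and limma called 0 of the 7 tested in either fit (0 with 6 libraries by edgeR and DESeq2), with 1 higher in SF/SCL at an unadjusted p under 0.05 (4.19% of all genes), and 2 without cow 489215 (2792 of 15495 genes). The 8 fibroblast markers summed to 404376, 514382 and 487035 against 200794, 210351 and 302233, led by COL3A1 with 132576, 172229 and 160639.7 against 68204, 72090.2 and 81486, and 7 were called higher in LF/LCL without cow 489215, against 7.92% of all genes. With 6 libraries limma and edgeR called 0 of them, while 6 were higher in LF/LCL at an unadjusted p under 0.05 by limma (4.48% of all genes) and 4 by DESeq2 (1.35%). The sum was lower in all 3 SF/SCL cows than in any LF/LCL cow, the values of 5 of the 8 markers did not overlap between the groups (8.6% of all genes with LF/LCL above), and 0 were highest in cow 489215.

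The epithelial lists differed from each other in cow 489215. The 13 ciliated markers summed to 51618, 48003 and 40338 in LF/LCL cows, 76632 and 82074 in cows 856 and 97, and 46985 in cow 489215, with CAPS the most abundant (21404, 19766 and 16551 against 16579, 19493 and 19117) and PIFO listed at 0. With 6 libraries limma and edgeR called 0 of the 12 tested, while 3 were higher in SF/SCL at an unadjusted p under 0.05 by limma (4.19% of all genes) and 3 by DESeq2 (1.35%). Without cow 489215 limma called 11 higher in SF/SCL, against 10.3% of all genes. The 12 secretory and general epithelial markers, led by OVGP1, summed to 55585, 43054 and 37489, then 329717 and 391708, then 105576, where OVGP1 made up most of the sums of cows 856 and 97. Of the 11 tested, which did not include OVGP1, 8 were highest in cow 489215, with a median of 0.94 for that cow minus the others (log2), and 4 were called higher in SF/SCL without it, against 10.3% of all genes. With 6 libraries limma and edgeR called 0 of these 11, while 5 were higher in SF/SCL at an unadjusted p under 0.05 by limma (4.19% of all genes) and 2 by DESeq2 (1.35%). The 5 mesothelial markers, led by MSLN, summed to 2452, 2913 and 3314, then 26249 and 26728, then 3483, and 0 of the 5 passed the filter with 6 libraries. Without cow 489215, 2 were tested, and limma called WT1 higher in SF/SCL (10.3% of all genes) and LRRN4 higher in LF/LCL (7.92%). Endothelial markers summed to 13172, 16255 and 12613 against 10759, 11142 and 15288. The most abundant was VWF, and limma called 2 of 7 higher in LF/LCL without cow 489215, against 7.92% of all genes, and 0 with 6 libraries (1 higher in LF/LCL at an unadjusted p under 0.05, 4.48% of all genes, 0 by edgeR and DESeq2). Leukocyte markers summed to 2121, 3182 and 3635 against 3239, 3030 and 2098 (most abundant CSF1R, 0 of 8 called in either fit by limma, 0 at an unadjusted p under 0.05, 0 with 6 libraries by edgeR and DESeq2). Adipocyte and erythrocyte markers were near 0, with sums of at most 25.3 in any cow and ADIPOQ and AHSP the most abundant, and 0 were called in either fit by limma (0 with 6 libraries by edgeR and DESeq2). Cytosolic ribosomal protein genes, a list of 103 added after the values were seen, summed to 1227740, 1174337 and 1167466, then 1182880 and 1210735, then 2930832. Without cow 489215 limma called 1 of 95 tested higher in SF/SCL (10.3% of all genes) and 0 higher in LF/LCL (7.92%). With 6 libraries limma, edgeR and DESeq2 called 0. By limma 2 were higher in SF/SCL at an unadjusted p under 0.05 (4.19% of all genes). The median log2 fold change of these genes was then 0.44, with 93 of 95 positive. In 19 of them all SF/SCL cows lay above all LF/LCL cows (9.51% of all genes). In 92 of the 95 ribosomal protein genes cow 489215 was highest (36.7% of all genes). Their sums shared the excess of cow 489215 but not the lower values of cows 856 and 97. The part of cell types and of the library of cow 489215 in the values of the subunit genes was not tested.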

How the data were processed

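RNA of the isthmus was sequenced in 6 cows, 3 per group. The submitters' processing notes name CASAVA 1.8.2, TopHat2 2.0.8, Bowtie2 2.1.0, SAMtools 0.1.18, HTSeq 0.5.4p2 and DESeq 1.12.1. The unit of the deposited values is a signal: the authors scaled the reads of each library by a DESeq size factor, from 0.751 to 1.32. Whole reads were recovered for 100% of 147696 values (tolerance 0.001) and were used in edgeR and DESeq2, which called 0 and 416 genes.

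Tests were run in R 4.3.3 with limma 3.58.1 (moderated, two-sided, with an intensity trend and robust variances) on log2 of value plus 1, with Benjamini-Hochberg adjustment over all genes tested and a threshold of 0.05. The filter kept genes whose mean exceeded both 5 and the SD. The pseudocount of 1 understates the differences of genes with low values. Alternatives were pseudocounts of 0.5 and 5, a filter on the mean alone or none beyond 1 read, TMM scaling, edgeR 4.0.16 (quasi-likelihood), DESeq2 1.42.0 (Wald) and leaving out each cow; scaling by the library total and all refits on top of leaving out cow 489215 were chosen after seeing the data. The tests were tried on simulated data, and the outcome is not reported here.

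Genes named were, in each complex, the 3 with the largest absolute log2 fold change and the highest and the lowest by mean level. Tissue isoforms and a set of catalytic, core and metal-binding subunits were named as well. In other mitochondrial lists, they were the 2 largest log2 fold changes and CYC1, CYCS, PPARGC1A, NRF1, TFAM and ESRRA. In marker lists, the most abundant gene was named. Other genes, the list of cytosolic ribosomal proteins and the split of complex I were chosen after values were seen. Not every marker list that was summed is described here. Members and lists were chosen with earlier results of these data known. Promoter motifs were not searched, as no sequences were at hand, and ampulla libraries and qPCR were not analysed here.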

Additional observations from a re-analysis of the deposited data

How the results depend on the processing

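With 6 libraries, 0 subunit genes passed the adjusted threshold of limma under every other pseudocount, filter and scaling and in edgeR, and 2 passed in DESeq2, which called 416 genes in all. With cow 489215 left out, DESeq2 called 36 subunit genes, 34 with a negative log2 fold change and 2 with a positive one. Among all 15495 genes of that fit, DESeq2 called 1830 with a negative and 2108 with a positive log2 fold change. Of the 53 named genes tested, all kept direction and side of the threshold under the other pseudocounts and filters, while the sign turned in 2 with TMM, 8 with the library total, 7 with edgeR and 7 with DESeq2, and the cause was not tested. The median of complex II was −0.0141 with TMM and −0.0764 with the library total. With TMM, SDHA was −0.0119 and COX7A1 −0.00502. With the library total, values were −0.0373 (ATP5A1), −0.0213 (COX8A), −0.0405 (NDUFA4), −0.0238 (COX6A1), −0.0674 (COX7A1), −0.0537 (UQCRC1), −0.0535 (NDUFV1) and −0.0743 (SDHA). With edgeR and DESeq2, values were 0.0583 and 0.10 for COX8B, 0.13 and 0.17 for SDHB, 0.0579 and 0.0918 for ATP5B, 0.27 and 0.31 for NDUFB6, 0.13 and 0.16 for NDUFV2, 0.18 and 0.22 for UQCR11, and 0.0539 and 0.0883 for the more abundant CYCS gene.

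Leaving out 1 cow at a time, subunit genes past the adjusted threshold numbered 0 to 23, those at an unadjusted p under 0.05 numbered 2 to 50, and all genes past the adjusted threshold 0 to 2827. With cow 489215 already left out, 4 to 22 subunit genes passed when a further LF/LCL cow was left out. Over all genes, 753 to 1420 then passed as higher in SF/SCL and 462 to 971 as higher in LF/LCL. Median log2 fold changes ran from −0.32 to 0.40 over all subunit genes, −0.33 to 0.41 in complex I, −0.21 to 0.20 in complex II, −0.29 to 0.39 in complex III, −0.41 to 0.37 in complex IV and −0.28 to 0.46 in complex V. Without cow 489215 the sign turned in 31 named genes, and 14 passed the threshold in the same direction. In genes whose sign turned, log2 fold changes ran from −1.37 to 0.13 (COX8B), −0.28 to 0.24 (ATP5A1), −0.49 to 0.41 (ATP5G3), −0.50 to 0.38 (COX8A), −0.41 to 0.45 (COX7A2), −0.17 to 0.86 (ATP5G2), −0.0439 to 0.62 (NDUFA1), −0.0595 to 2.02 (COX6B2), −0.55 to 0.25 (SDHB), −0.31 to 0.58 (UQCRQ), −0.26 to 0.61 (UQCRH), −0.63 to 0.42 (NDUFA4), −0.46 to 0.37 (COX6A1), −0.46 to 0.19 (ATP5B). They also ran from −0.49 to 0.30 (COX7A1), −0.23 to 0.64 (NDUFA2), −0.0861 to 0.58 (COX4I1), −0.0379 to 1.35 (COX4I2), −0.28 to 0.69 (NDUFC2), −0.57 to 0.49 (ATP5G1), −0.52 to 0.47 (COX5B), −0.26 to 0.19 (UQCRC1), −0.0728 to 0.60 (UQCRC2), −0.34 to 0.23 (NDUFV1), −0.12 to 0.0166 (NDUFS1), −0.17 to 0.57 (COX6B1), −0.30 to 0.52 (NDUFA4L2), −0.22 to 0.14 (SDHA). Last, they ran from −0.28 to 0.36 (UQCRFS1), −0.69 to 0.33 (NDUFB6), −0.64 to 0.24 (NDUFV2), −0.71 to 0.29 (UQCR11), −0.33 to 0.54 (NDUFAB1), −0.51 to 0.53 (USMG5), −0.29 to 0.31 (CYC1), −0.0626 to 0.34 (the less abundant CYCS gene), −0.51 to 0.19 (the more abundant CYCS gene), −0.35 to 0.11 (ESRRA), −0.61 to 0.31 (NRF1), −0.31 to 0.26 (TFAM). In genes that kept their sign, values ran from 0.0866 to 0.59 (COX7A2L), 0.72 to 0.94 (ATP5F1), 0.65 to 0.82 (ATP5S), 0.11 to 0.45 (SDHC), 0.43 to 1.04 (the less abundant ATP5E gene), −1.10 to −0.44 (IDH2), 0.36 to 1.06 (MRPL48), −2.27 to −0.54 (MRPS36), 0.24 to 0.64 (MTERFD1), −1.28 to −0.88 (OGDH), −0.94 to −0.35 (PPARGC1A), 0.53 to 0.74 (SCO2), 0.47 to 0.62 (TTC19). Where the sign turned, the lowest value was mostly that without cow 489215 and the highest that without cow 856 or 97, and the cause was not tested. COX6B2 was not tested without cow 527 or without cow 856, so its range covers only the other refits. A cow that remained alone in its group was taken to vary like the other group. No paired analysis was possible because the groups share no cow numbers. Scaling by the library total and every refit with cow 489215 already left out were chosen after seeing the data. Depth limits genes with few reads: a count of 0 leaves room for 3 reads.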
